A study of Homo sapiens with 6 samples.

Results

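Of the 17375 peaks of N6-methyladenosine (m6A) in 3 lists, 1752 lay wholly inside the body of a protein-coding gene shorter than 10 kb and are described here. Gene bodies, from the first to the last base of a gene with its introns, were those of RefSeq on GRCh38.p14, and a peak held by several such bodies was given to the shortest. The cells were U-251 MG, an established line from a human glioblastoma. In the assay, methylated RNA immunoprecipitation (meRIP-seq), an antibody to m6A captures RNA fragments, which are sequenced alongside input RNA. Cells with a hairpin against TRA2A (shTRA2A), an SR-like splicing regulator, and cells with a hairpin against METTL3 (shMETTL3), the catalytic subunit of the main m6A writer, were set against cells with a control hairpin (shNC). Each condition had 1 immunoprecipitated and 1 input library and is represented by 1 peak list, so no difference between conditions has a replicate check and none was tested. The number of hairpins or clones behind each name, the degree of knockdown and the read depth are unknown here. All 3 conditions shared the culture medium and library kit.

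The short genes held 254 peaks of the shTRA2A list, 612 of the shMETTL3 list and 886 of the shNC list. Peaks in coding genes of 10 kb or more, to which they are compared, numbered 2324 in shTRA2A, 4562 in shMETTL3 and 7891 in shNC. Of the short-gene peaks, 32 in shTRA2A, 86 in shMETTL3 and 141 in shNC also touched a longer gene body, and the lists cannot say which gene their RNA came from. The bodies nearest to the limit with a peak were P3H4 (9997 nt) and GEMIN4 (9990 nt) inside it, and SFXN3 (10008 nt) and ANKRD39 (10027 nt) outside it. Each of these 4 genes had 1 shNC peak, none overlapped by a knockdown peak.

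The writer complex methylates adenosines in a short sequence context with AC at its core. In long genes m6A is known to gather in long internal exons and near stop codons, while exon junction complexes keep it away from the neighbourhood of splice sites. Short genes include single-exon genes, immediate early genes, many developmental transcription factors, histone genes and ribosomal protein genes.

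Most of these peaks lie outside the sequence used here, which is limited to windows around RefSeq gene starts on GRCh38.p14. Of the 1752 peaks, 61 touched such a window and 9 lay wholly within one. The 3 stretches below stand for a region with a peak in all lists, a peak listed in shMETTL3 and a peak listed in shNC. They are given in the direction of the peak, with capitals marking the letters GGAC, where A may stand in place of either G or both, which were searched on both strands and whose 4 forms cannot overlap one another.
TWNK, bases in a peak of all 3 lists, chr10:100987717-100987741, plus strand: gcgggagtcgtgctgggtgctctcg
FAM32A, shMETTL3 peak, chr19:16185430-16185459, plus strand: actggagagtgtcatggaggcctacgagca
TSPYL4, shNC peak, chr6:116253964-116254013, minus strand: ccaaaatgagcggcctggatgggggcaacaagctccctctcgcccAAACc
The TWNK stretch, from the gene of the mitochondrial DNA helicase, is the 25 bases common to its shTRA2A, shMETTL3 and shNC peaks and held none of these letters. The FAM32A stretch is the 30 readable bases of a peak 50 nt wide, holds none of them, and has its first ATG at base 14. The TSPYL4 stretch is a whole peak of 50 nt, has its first ATG at base 6 and holds AAAC 1 time, while no stretch held any of the letters on the other strand. Of non-overlapping windows of the same length cut from RefSeq promoter sequences, 26.2% at 25 bases, 31.0% at 30 bases and 47.2% at 50 bases held at least 1 of the 4 forms. TWNK had 2 shTRA2A, 2 shMETTL3 and 3 shNC peaks, and FAM32A had 1 shTRA2A, 2 shMETTL3 and 1 shNC peak. TSPYL4 had 2 shNC peaks and none in either knockdown list.

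Short genes carried a peak less often than longer genes but held more peaks per length of gene body, introns included. Exon lengths were not used, so this density is not one per length of transcript. In shTRA2A 193 short genes had a peak, in shMETTL3 419 and in shNC 531, of 5707 short coding genes in the table. The shNC share was 9.30% of short genes (95% exact Clopper-Pearson interval 8.56% to 10.1%) against 24.9% of longer ones (24.2% to 25.6%). These intervals cover counting error alone and treat genes and peaks as independent. Genes of 2 to 5 kb had the highest density, with 15 shTRA2A, 34.6 shMETTL3 and 50.5 shNC peaks per Mb of gene body. Genes of 100 kb or more had 0.919 shTRA2A, 1.80 shMETTL3 and 3.18 shNC peaks per Mb. Genes under 2 kb were the least often listed, with a peak in 0.789% of genes in shTRA2A, 1.498% in shMETTL3 and 2.997% in shNC. Short genes made up 9.85% of the coding-gene peaks in shTRA2A (8.73% to 11.1%), 11.8% in shMETTL3 (10.96% to 12.7%) and 10.1% in shNC (9.47% to 10.7%). The shMETTL3 interval lies above that of shNC, but among the better-scoring 50% of each list the shares were 9.36%, 9.09% and 8.60%, with intervals that overlap.

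**Figure D1:**
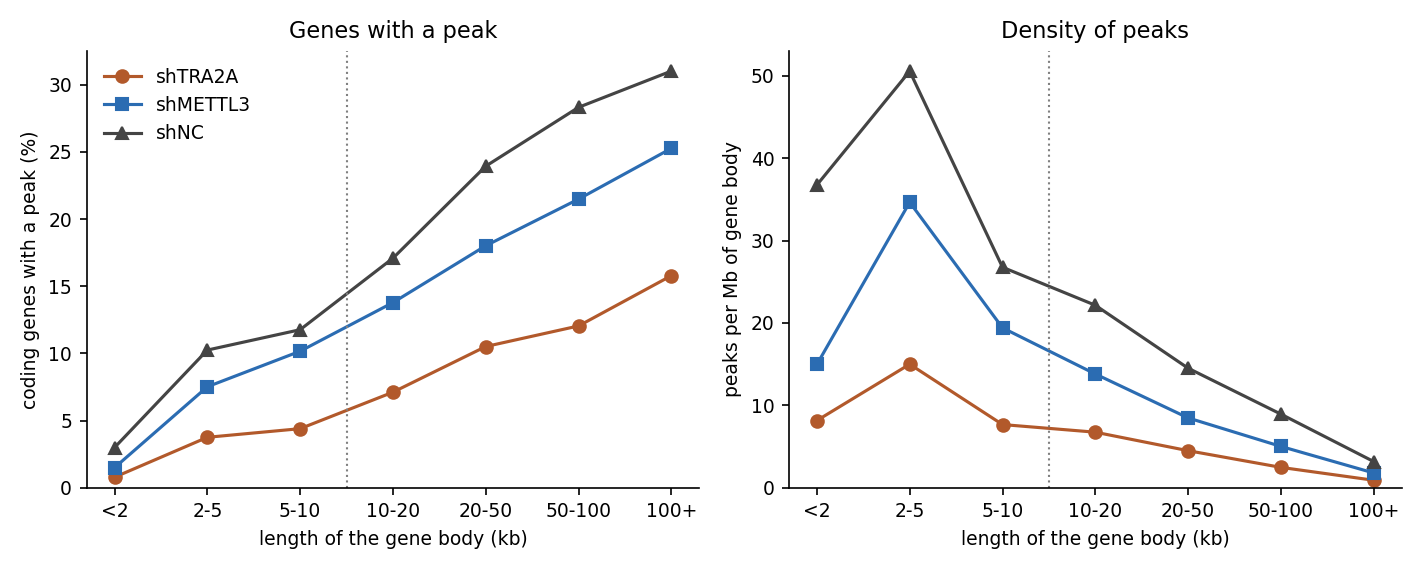
Share of coding genes with a peak (left, percent) and peaks per Mb of gene body (right) by length of the body in kb, for shTRA2A (circles), shMETTL3 (squares) and shNC (triangles). The dotted line marks the 10 kb limit. The share of genes climbs with length in every list, while the density is highest at 2 to 5 kb, 15, 34.6 and 50.5 peaks per Mb.

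A short gene with peaks had fewer of them than a longer one. The mean was 1.32 shTRA2A, 1.46 shMETTL3 and 1.67 shNC peaks per short gene with a peak, against 1.44, 1.64 and 2.21 per longer gene. In all, 790 short genes had a peak in at least 1 list and 72 in all lists. Of the others, 28 had peaks in shTRA2A and shMETTL3, 38 in shTRA2A and shNC, and 143 in shMETTL3 and shNC, while 55 had them in shTRA2A alone, 176 in shMETTL3 alone and 278 in shNC alone. The 72 were led by RANBP6, an importin relative, with 4 shTRA2A, 6 shMETTL3 and 5 shNC peaks. HEXIM1, the inhibitor of the elongation kinase P-TEFb, had 4, 6 and 3 peaks in the same order, and MGAT2, a Golgi enzyme of N-glycan synthesis, had 4, 2 and 7.

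Most control peaks of short genes had no counterpart in a knockdown list, in about the proportion seen in longer genes. A peak was counted as found where a peak of the other list covered 1 or more of its bases on its strand. Each peak was taken as the whole span from its first to its last base. Of 886 shNC peaks in short genes, 79 were found in shTRA2A, 8.92% (7.12% to 10.99%), against 9.68% in longer genes and 9.58% of all shNC peaks. The difference, short minus longer, was -0.77 percentage points (Newcombe 95% interval -2.60 to 1.39). In shMETTL3, 166 were found, 18.7% (16.2% to 21.5%), against 18.1% in longer genes and 17.9% of all shNC peaks, a difference of 0.66 points (-1.92 to 3.49). Both intervals hold 0 and leave differences of up to 3.49 points possible on counting error. Neither knockdown list overlapped 686 of the 886 peaks, 77.4% against 77.3% in longer genes, and both overlapped 45, 5.08% against 5.09%. With the limit at 20 kb in place of 10 kb, the difference for shTRA2A was -1.65 points (-3.01 to -0.18), below 0.

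Seen from the knockdown lists, 80 of 254 short-gene shTRA2A peaks overlapped a control peak, 31.5% against 34.8% in longer genes and 33.8% of the whole list. For shMETTL3 the count was 174 of 612, 28.4% (24.9% to 32.2%) against 33.9% in longer genes (32.5% to 35.3%) and 32.7% of the whole list. This difference was -5.44 points (-9.14 to -1.49). It was below 0 under each of 12 alternative rules, but its interval held 0 under 5 of them, among them midpoints within 100 nt (-6.20 to 0.93) and bodies under 5 kb (-7.66 to 3.99).

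The shTRA2A peaks lay on a shMETTL3 peak more often in short genes. Of 254 shTRA2A peaks, 84 overlapped a shMETTL3 peak, 33.1% (27.3% to 39.2%), against 23.3% in longer genes (21.6% to 25.1%) and 23.8% of the whole list. The difference was 9.75 points (3.98 to 15.98). Its interval held 0 among the better-scoring 50% of each list (6.22 points, -1.27 to 14.998) and for bodies under 20 kb (3.09 points, -0.84 to 7.25). The reverse share, of shMETTL3 peaks on a shTRA2A peak, was 12.9% against 11.7% in longer genes and 11.8% of the whole list, and its difference of 1.16 points had an interval that holds 0 (-1.45 to 4.19). This pairing was added after the values were seen, and the 6 intervals were not adjusted for their number.

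**Figure D2:**
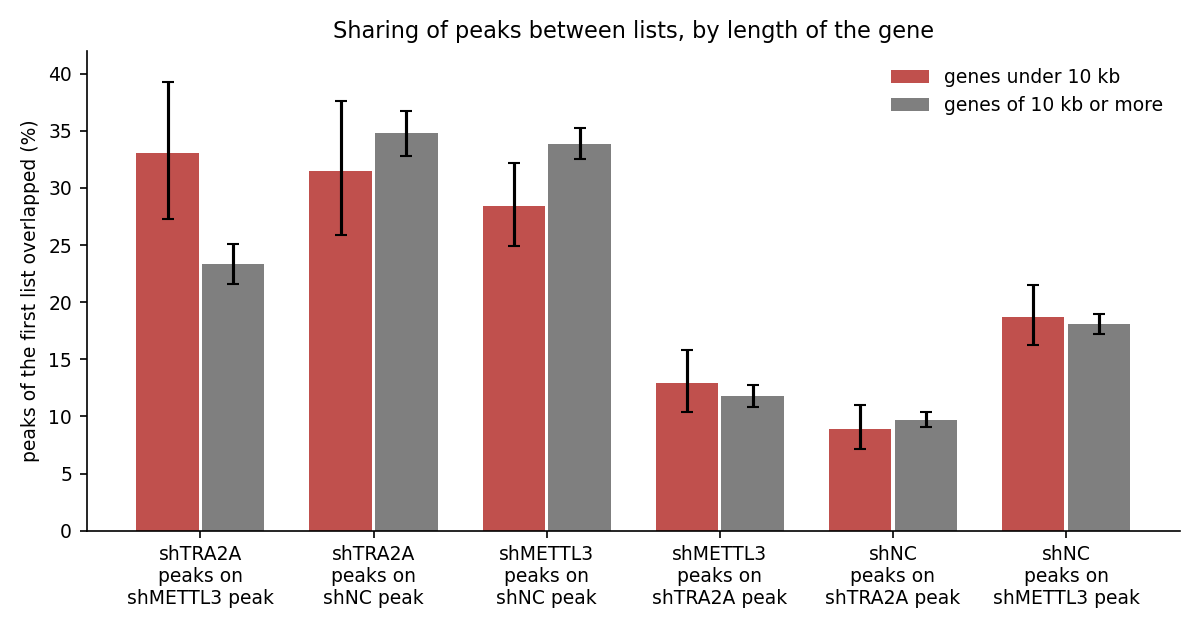
Percent of the peaks of the list named first that a peak of the list named last covers by 1 base or more, strand by strand, in genes under 10 kb (red) and of 10 kb or more (grey), with exact 95% intervals. The pair furthest apart is shTRA2A on shMETTL3, 33.1% against 23.3%.

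The excess lay in shTRA2A peaks that overlapped a shMETTL3 peak and no control peak. They numbered 42 of 254 in short genes, 16.5% (12.2% to 21.7%), against 7.01% in longer genes (6.01% to 8.13%), a difference of 9.52 points (5.31 to 14.7). Peaks in all 3 lists made up 16.5% in short and 16.3% in longer genes. Counted by gene, 30 of 193 short genes with a shTRA2A peak had such a peak, 15.5%, against 9.28% of longer ones, a difference of 6.27 points (1.58 to 12.2). Of the 30 genes, 17 had a control peak elsewhere in the gene and 13 had none. Of the 42 peaks, 9 also touched a longer gene body. Whether depth, the peak threshold or the RNA differed between the control and both knockdowns cannot be told apart with 1 list per condition.

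The genes described next were chosen from these 30 after their values were seen. HNRNPA1, a splicing repressor, held the strongest such peaks, with scores of 19.3 and 18.7 at chr12:54283731-54284345 and chr12:54282205-54283217. The score is the authors' own value per peak, of unstated scale, and ranks peaks within a list. HNRNPA1 had 3 shTRA2A, 3 shMETTL3 and 2 shNC peaks. RBM15B, an adaptor of the m6A writer complex, had 3 peaks in each list, and no control peak in it was overlapped. Its shTRA2A peaks with a shMETTL3 partner began 1000 and 1750 nt from the 5′ end of the gene, while its strongest shNC peak, of score 40.9, spanned 2625 to 3124 nt. Its other shNC peaks, at 850 to 899 and 1500 to 1674 nt, ended close before shMETTL3 peaks at 900 to 1024 and 1700 to 1949 nt. With midpoints within 100 nt required in place of overlap, 1 shNC peak of RBM15B was found in shMETTL3.

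NES, which encodes the neural stem cell filament nestin, showed the same arrangement on a larger scale. Its 3 shTRA2A peaks lay between 6895 and 7519 nt from the 5′ end, and each overlapped a shMETTL3 peak. The 5 shMETTL3 peaks spanned 4695 to 7519 nt, and the 3 shNC peaks 2159 to 6044 nt, none of them overlapped. The strongest shNC peak, of score 32.2, ended 25 nt short of the nearest shMETTL3 peak, which began at 6070 nt. CENPB, the centromere protein B gene, had 1 shTRA2A peak of score 15.6 and 4 shMETTL3 peaks of scores 7.10 to 16.3, all between 1215 and 1739 nt, and no shNC peak.

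MEPCE, the capping enzyme of 7SK RNA, had 2 shTRA2A, 2 shMETTL3 and 1 shNC peak, and its shTRA2A peaks scored 12.6 and 9.40. In HEXIM1 the peak at 1625 to 1749 nt, of score 10.0 in shTRA2A, had a shMETTL3 partner and no control partner, while 2 of its 3 control peaks were overlapped by both knockdowns. IRF3, the transcription factor that induces interferon, had 4 shTRA2A, 3 shMETTL3 and no shNC peaks, and those shared between the knockdowns lay on both strands. MAT2A, which makes the methyl donor S-adenosylmethionine, had 2 shTRA2A, 3 shMETTL3 and no shNC peaks. Its 2 shTRA2A peaks, of scores 5.57 and 5.75, lay at nearly the same place on opposite strands, as did 2 of its shMETTL3 peaks. All of these also touched a longer gene body, so the gene their RNA came from is uncertain. BCL2L2, a survival factor of the BCL2 family, WDR55 and the histone chaperone gene DAXX had 1 shTRA2A peak each, of scores 12.8, 11.9 and 10.8, and no control peak.

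**Figure D3:**
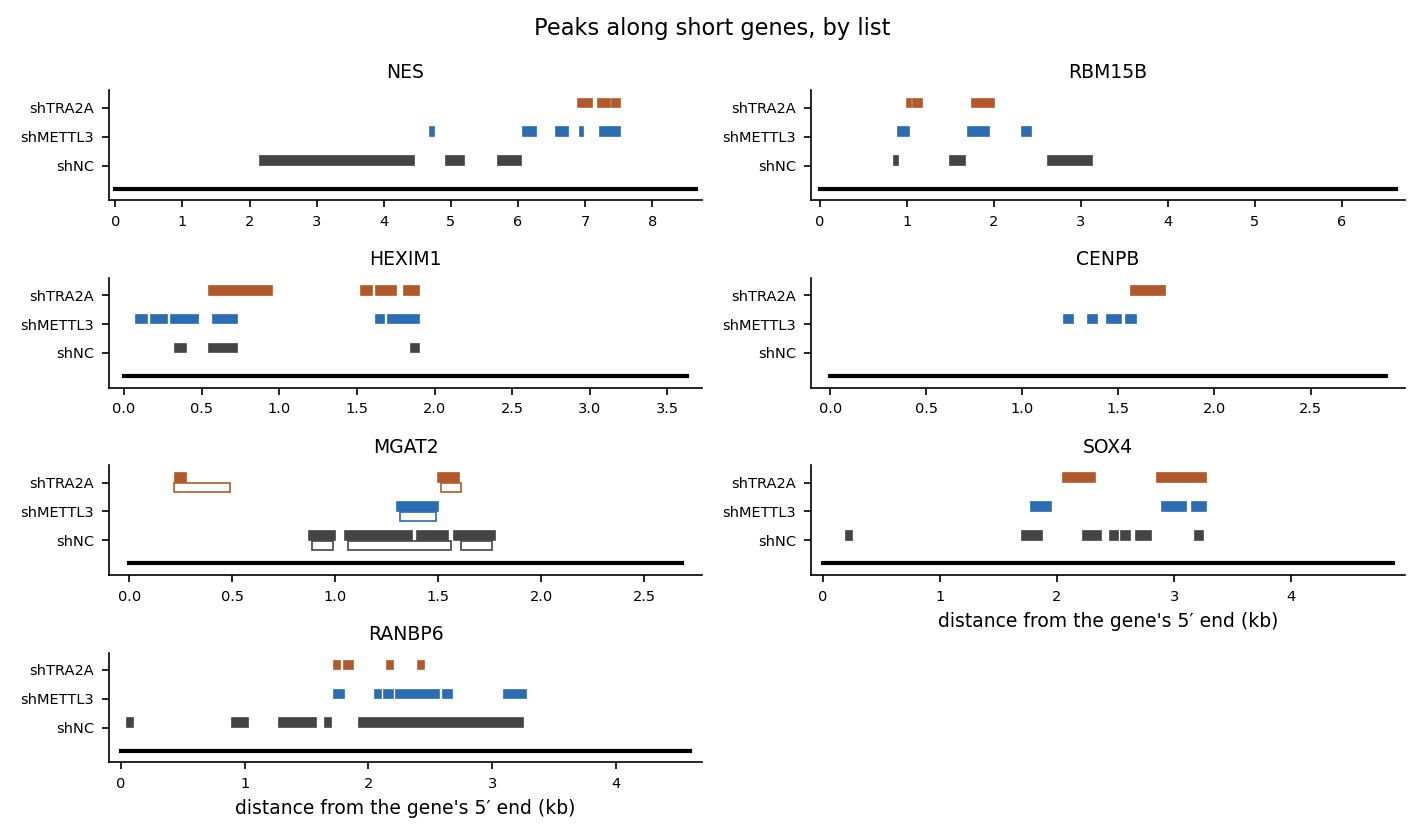
Peaks of shTRA2A (top), shMETTL3 (middle) and shNC (bottom) along 7 short genes, by distance from the gene's 5′ end in kb; filled boxes lie on the strand of the gene and open boxes on the other. In NES and RBM15B no knockdown peak overlaps a shNC peak, and in CENPB there is no shNC peak.

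Control peaks that were not overlapped sometimes had a knockdown peak elsewhere in the same gene. Of 807 shNC peaks not found in shTRA2A, 118 lay in a gene with a shTRA2A peak, 14.6% against 32.8% in longer genes, at a median gap of 351 nt, against 3685 nt in longer genes. Of 720 not found in shMETTL3, 256 lay in a gene with a shMETTL3 peak, 35.6% against 49.8% in longer genes, at a median gap of 426 nt, against 1826 nt in longer genes. A short body bounds the gap, so these values describe the scale of the genes. Gaps of at most 100 nt occurred for 27 of the 118, 22.9% against 7.73% in longer genes, and for 31 of the 256, 12.1% against 10.1%. These shares carry the same bound. Of all shNC peaks not found in shTRA2A, such gaps occurred for 27 of 807 in short and 181 of 7127 in longer genes. For shMETTL3 they occurred for 31 of 720 and 324 of 6465.

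Short genes with a control peak had a knockdown peak anywhere in the body less often than longer genes with one. Whatever the control list held, 3.38% of short and 11.3% of longer genes had a shTRA2A peak, and 7.34% and 19.4% a shMETTL3 peak. The shares below therefore start from unlike rates in short and longer genes. Of 531 short genes with a shNC peak, 110 had a shTRA2A peak anywhere in the body, 20.7% (17.3% to 24.4%), against 30.1% of longer genes (28.6% to 31.6%) and 28.9% of all coding genes. With shMETTL3 the count was 215, 40.5% (36.3% to 44.8%), against 49.4% of longer genes (47.7% to 51.0%) and 48.2% of all. In the other direction 57.0% of short genes with a shTRA2A peak had a shNC peak, against 65.5% of all coding genes, and 51.3% of those with a shMETTL3 peak did, against 61.7% of all. Among genes with 1 shNC peak the shares were 18.6% (14.5% to 23.3%) in short and 21.03% (19.1% to 23.02%) in longer genes for shTRA2A, and 33.2% (28.1% to 38.7%) and 37.9% (35.7% to 40.3%) for shMETTL3, with overlapping intervals. Among genes with 2 or more shNC peaks they were 23.9% (18.3% to 30.3%) in short and 38.8% (36.5% to 41.1%) in longer genes for shTRA2A, with intervals apart. For shMETTL3 they were 51.7% (44.7% to 58.6%) and 60.3% (58.01% to 62.5%), with intervals that overlap slightly. Genes with an overlapped shNC peak made up 12.8% of short and 16.4% of longer genes for shTRA2A, and 25.6% and 28.8% for shMETTL3. With 1 shNC peak this share was higher in short genes, 9.94% against 7.51% for shTRA2A and 18.6% against 15.5% for shMETTL3. With 2 or more it was lower, 17.2% against 24.9% and 36.4% against 41.6%.

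The short genes with the most control peaks differed in what the knockdown lists held. SOX4, a transcription factor of neural progenitors and glioma, had 2 shTRA2A peaks, 3 shMETTL3 peaks and 7 shNC peaks, and 2 of the 7 were overlapped in each knockdown. UTP14C, a nucleolar protein gene, also had 7 shNC peaks, none overlapped, with no shTRA2A and 1 shMETTL3 peak. GCC1, a Golgi coiled-coil protein gene, had 1 shTRA2A, 2 shMETTL3 and 7 shNC peaks. The 7 shNC peaks of MGAT2 included 3 on the opposite strand of the gene, each overlying one on its own strand. TENT5A, THUMPD1, PCDHB16 and FZD4, the last a Wnt receptor, had 6 shNC peaks each and no shTRA2A peak. Each of these 4 had 1 or 2 shMETTL3 peaks. FZD4 lies on the minus strand, and its strongest shMETTL3 and shNC peaks lie on the plus strand. RSC1A1 had 1 shTRA2A, no shMETTL3 and 6 shNC peaks. Of all 886 short-gene shNC peaks, 141 also touched a longer gene body. Which peaks of the genes named here did so is not given, so the gene of origin can be uncertain.

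Of the 10 short genes with the strongest control peak, 5 had a shTRA2A peak and 8 a shMETTL3 peak, beside 20.7% and 40.5% of all 531. The highest score, 391, was that of a 75 nt peak in PCDHB5, a beta protocadherin for cell adhesion, at chr5:141137108-141137182. It lay on the strand opposite to the gene, and PCDHB5 had no peak in either knockdown list. IFIT5, an interferon-induced RNA-binding protein gene, came next with a peak of score 162 and 1175 nt at chr10:89417294-89418468. It had no shTRA2A peak, and 2 shMETTL3 peaks of 75 and 125 nt, both inside the control peak. KLHL9, a ubiquitin ligase adaptor gene, had a control peak of score 100.2 that held 1 shTRA2A peak of score 14.7 and 2 shMETTL3 peaks of scores 9.14 and 22.6. In C1GALT1C1, the chaperone of O-glycan synthesis, the control peak of score 92.7 held 1 shTRA2A peak and no shMETTL3 peak.

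PNN, a splicing-associated protein gene, had 3 shTRA2A, 2 shMETTL3 and 3 shNC peaks, the strongest shNC peak scoring 90.7. EID1, an inhibitor of histone acetylation, had 1 shTRA2A, 1 shMETTL3 and 2 shNC peaks. MBD4, a DNA glycosylase that acts at methylated CpG sites, and C3orf38 had no shTRA2A peak. Their strongest shNC peaks scored 69.3 and 65.8, and in each gene at least 1 shNC peak was overlapped in shMETTL3. EPM2AIP1 had 1 shTRA2A, 1 shMETTL3 and 2 shNC peaks, and the same shNC peak was overlapped by both. Among genes without a shMETTL3 peak, SMIM15 had 1 shTRA2A peak on its control peak of score 59.6. TCIM, ING2 and RBM7, with strongest shNC scores of 52.1, 46.0 and 45.7, had a peak in neither knockdown list.

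Some short genes had strong knockdown peaks without a control peak. In shTRA2A these were led by OGFR, the opioid growth factor receptor gene, with 3 shTRA2A peaks of scores 8.03, 9.20 and 15.8, 1 shMETTL3 peak that overlapped none of them, and no shNC peak. HNRNPDL, a splicing regulator of the hnRNP family, had 1 shTRA2A peak of score 10.9 and none in the other lists. In shMETTL3 the strongest was in ALG10, a glucosyltransferase gene of N-glycan assembly, with a peak of 1878 nt and score 74.4 at chr12:34024068-34025945. It ranked 6 in the shMETTL3 list, and ALG10 had no peak in the other lists. TSR2, a ribosomal protein chaperone gene, had 2 shMETTL3 peaks, the stronger of score 37.3, ZMAT2 1 of 35.8, PEBP1, the Raf kinase inhibitor protein, 1 of 24.5, and KAZALD1 3, the strongest of 21.2. None of these 4 genes had a shTRA2A or shNC peak.

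Groups of short genes are given by counts. Over all short genes 9.30% had a control peak, and of those 531 genes 20.7% had a shTRA2A and 40.5% a shMETTL3 peak. Of 45 short immediate early and stress response genes, 25 had a control peak, of which 5 also had a shTRA2A and 10 a shMETTL3 peak. JUN, a subunit of AP-1, had 2 shTRA2A, 3 shMETTL3 and 1 shNC peak, and the shNC peak was overlapped by both. CCN2 and MCL1 had 2 shTRA2A, no shMETTL3 and 2 shNC peaks each. Of 49 neural, glial and developmental transcription factor genes, 16 had a control peak, 8 of them with a shTRA2A and 10 with a shMETTL3 peak. SOX9, an astroglial regulator, had 1 peak in each list, and its control peak of score 54.2 was overlapped by both. ID2, an inhibitor of basic helix-loop-helix factors, had 1 shNC peak of score 37.2 and HOXD10 2, with none in either knockdown list.

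Of 17 short genes of SR proteins and other RNA-binding proteins, 7 had a control peak, 5 of them with a shTRA2A and 5 with a shMETTL3 peak. SRSF5, an SR splicing factor gene, had 1 shNC peak of score 22.2 and none in the knockdown lists. Of 28 interferon-induced and antigen presentation genes, 4 had a control peak, none of them with a shTRA2A and 3 with a shMETTL3 peak. IFIT2 had no shTRA2A, 2 shMETTL3 and 5 shNC peaks, of which 1 was overlapped. CXCL11, a chemokine gene, had 2 shNC peaks and none in the knockdown lists. Of the 16 beta protocadherin genes, 8 had a control peak, none of them with a shTRA2A and 3 with a shMETTL3 peak. These genes are close paralogs, so the gene given to a peak is uncertain where reads could match several.

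Among 61 short ZNF genes 20 had a control peak, 1 of them with a shTRA2A and 6 with a shMETTL3 peak. ZNF281 had no shTRA2A, 2 shMETTL3 and 5 shNC peaks. Of 22 short GTPase genes 6 had a control peak, 2 of them with a shTRA2A and 3 with a shMETTL3 peak, among them RAP2B with no shTRA2A, 2 shMETTL3 and 4 shNC peaks. A control peak was listed in 3 of 67 histone and 3 of 68 ribosomal protein genes, beside 9.30% of all short genes. Of the ribosomal protein genes 7 had a peak in some list, and 3 had a shTRA2A and no control peak. RPL41 and RPL29 had 1 shNC peak each and none in the knockdown lists. Of 13 heat shock and chaperone genes 3 had a control peak, none of them with a shTRA2A and 2 with a shMETTL3 peak, HSPA5 and DNAJB9. PLK2 was the 1 of 14 cell cycle genes with a control peak, of score 62.3, and had no shTRA2A and 2 shMETTL3 peaks. Of 25 growth factor and cytokine genes 2 had a control peak, NOG and LIF, and neither had a knockdown peak.

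Counts of marker genes are too small to check the cells. NES was the 1 of 18 short intermediate filament, glioma and astrocyte marker genes with a control peak, and none of 15 short marker genes of neurons, oligodendrocytes, microglia, endothelium and blood had a peak in any list. Over all short genes 9.30% had a control peak and 13.8% a peak in some list. A missing peak does not show that a gene was silent.

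Relative to the length of the body, peaks were spread more evenly in short genes than in longer ones. Positions were taken for peaks on the strand of a gene whose strand RefSeq's promoter table gives. With the body divided into 5 equal segments, the segment at the 3′ end held 26.5% of shTRA2A (20.2% to 33.6%), 23.6% of shMETTL3 (19.7% to 27.9%) and 25.2% of shNC peaks (22.0% to 28.7%) in short genes. In longer genes it held 41.6% (39.4% to 43.9%), 44.1% (42.5% to 45.7%) and 51.2% (49.96% to 52.4%). The segment at the 5′ end held 13.8%, 12.95% and 9.53% in short genes, against 13.6%, 13.2% and 10.2% in longer ones. The median distance to the 3′ end was 1687 nt in shTRA2A, 1990 nt in shMETTL3 and 1918 nt in shNC for short genes, against 14071, 12429 and 8773 nt for longer ones. Segments differ in scale, as the median body with a shNC peak was 5399 nt in short and 53112 nt in longer genes. A short body also bounds the distance to its 3′ end. Neither measure compares short and longer genes at a like distance from the 3′ end. The share of control peaks found in shMETTL3 ran from 13.4% (8.67% to 19.4%) in the 3′ segment of short bodies to 24.1% (17.1% to 32.2%) in the segment next to the 5′ one, with intervals that overlap.

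**Figure D4:**
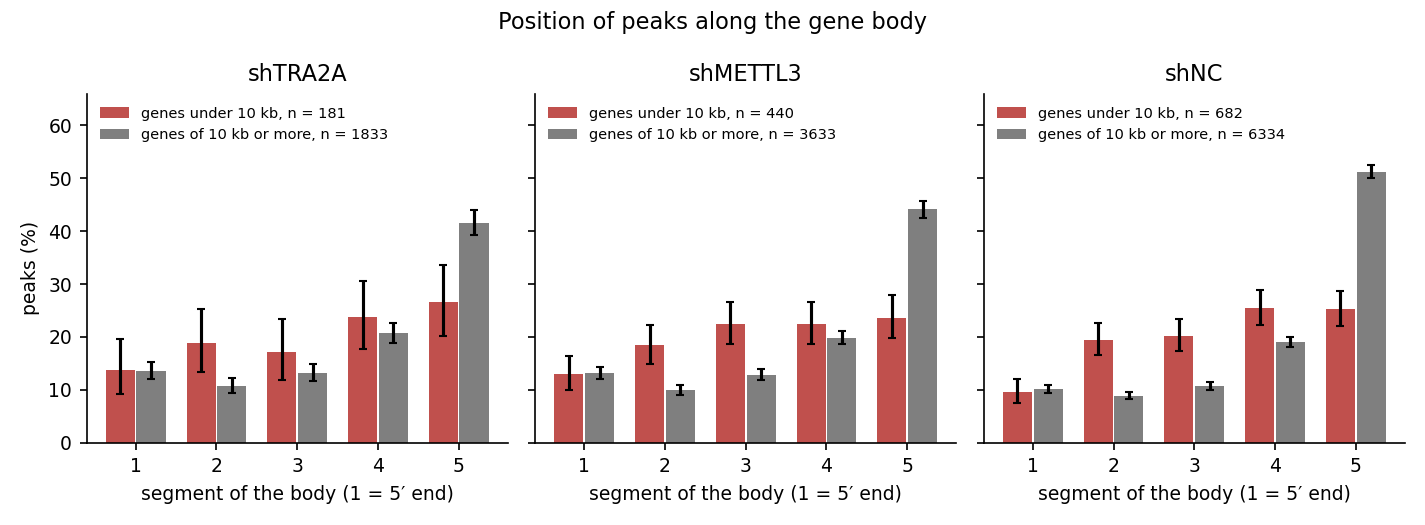
Percent of peaks in each of 5 equal segments of the gene body, numbered from the 5′ end, in shTRA2A (left), shMETTL3 (middle) and shNC (right), for genes under 10 kb (red) and of 10 kb or more (grey), with exact 95% intervals and the number of peaks in the legend. The segment at the 3′ end holds 26.5%, 23.6% and 25.2% of short-gene peaks and 41.6%, 44.1% and 51.2% of the others.

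The share found climbed with the score of the control peak in short and longer genes alike. Control peaks were put in 5 equal groups by score over the whole shNC list. In short genes 1.79% of the lowest group were found in shTRA2A (0.489% to 4.51%) and 25% of the highest (18.6% to 32.3%), against 0.815% and 28.7% in longer genes. For shMETTL3 the shares were 4.91% (2.48% to 8.62%) and 44.5% (36.8% to 52.5%), against 2.44% and 44.8%. Short genes had 25.3% of their control peaks in the lowest group and 18.5% in the highest, against 18.7% and 20.3% for longer genes. The median score was 11.7 in short and 12.6 in longer genes, and the median width 100 and 125 nt. Weighted to the score groups of longer genes, the short-gene share was 9.64% for shTRA2A, against 9.68% in longer genes. For shMETTL3 it was 20.4% against 18.1%. Weighted in the same way by width, the short-gene shares were 9.84% and 20.2%. The weighted shares have no interval.

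**Figure D5:**
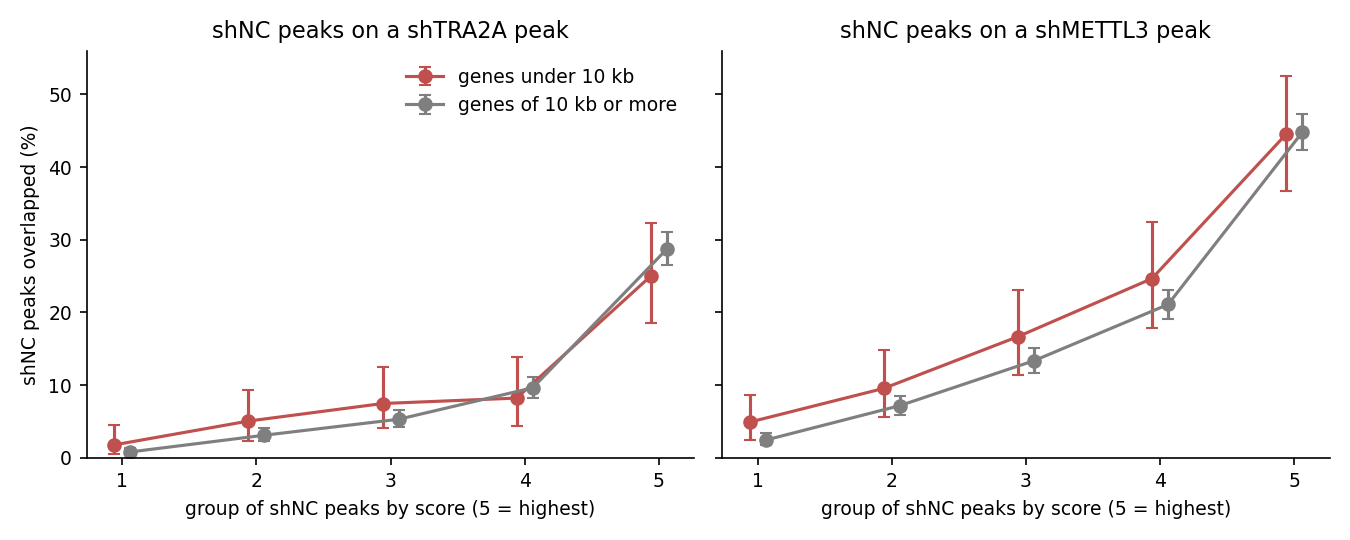
Percent of shNC peaks overlapped by a shTRA2A (left) or shMETTL3 peak (right) in each of 5 equal groups of shNC peaks by score, in genes under 10 kb (red) and of 10 kb or more (grey), with exact 95% intervals. In short genes the share goes up to 25% for shTRA2A and 44.5% for shMETTL3 in the highest group.

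Peaks on the strand opposite to the gene took a larger share in short genes. They made up 7.18% of shTRA2A (3.98% to 11.8%), 10.8% of shMETTL3 (8.16% to 13.8%) and 8.09% of shNC peaks (6.23% to 10.3%) in short genes of known strand, against 5.47%, 4.99% and 4.98% in longer ones. The shTRA2A interval covers the value of longer genes, and those of shMETTL3 and shNC lie above it. Peaks with a mirror image on the other strand, both ends within 5 nt, were 1.57% in shTRA2A, 2.94% in shMETTL3 and 1.81% in shNC, against 0.258%, 0.526% and 0.786% in longer genes. In IER5L, an immediate early response gene, mirrored peaks of 325 nt stood in shTRA2A, with a score of 12.6 for the plus-strand peak and 12.7 for its partner. In shMETTL3 the IER5L pair was 400 nt wide and scored 9.92 and 9.51. SLC2A4RG and HOXA7 held mirrored pairs in shMETTL3, and EMC6, TEFM and TMED1 in shNC. PCDHB2 held them in shMETTL3 and in shNC. A peak held by several bodies was given to the shortest whatever its strand. Of the short-gene peaks, 32 in shTRA2A, 86 in shMETTL3 and 141 in shNC also touched a longer gene body. The mirrored pairs of SLC2A4RG, AP4M1, EMC4 and MAT2A in shMETTL3, MAT2A in shTRA2A, and SFT2D3 and SLC5A2 in shNC were among them. Those of IER5L, HOXA7, PCDHB2, PRR36, EMC6, PPP1R35, TEFM and TMED1 were not. The opposite-strand and mirrored shares were not recomputed without the peaks that touch a longer body. The source of the opposite-strand peaks was not tested.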

How the data were processed

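The peak lists for shTRA2A, shMETTL3 and shNC, each made from 1 immunoprecipitated library and 1 input library (6 in all), were used as deposited. RNA was fragmented and libraries were made with a stranded total RNA kit, per the labels' protocols. The submitters' processing notes list featureCounts 2.0.1, HISAT2 2.2.1, SAMtools and the build GRCh38, without their roles. Peak caller, threshold, depth and handling of strand are not given in these sources. The deposited lists carry in column 5 a score per peak given by the authors, of unknown scale and log base, which was used to rank peaks within a list and never between lists. Of 4 list files, 1 matches no label and equals the shTRA2A list byte for byte; it was not used.

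Peaks were given to RefSeq coding gene bodies (GRCh38.p14) and counted as short-gene peaks when wholly inside a body under 10 kb. Overlap needed 1 or more bases on a common strand, with blocks inside a peak not treated apart. Irregular peaks had several blocks, a width above 1000 nt or a width not divisible by 25 nt. They made up 18.5% of shTRA2A, 16.8% of shMETTL3 and 10.8% of shNC peaks in short genes, against 34.3%, 31.3% and 20.2% in longer ones. The code ran on Python 3.11.15 (pandas 2.3.3, numpy 2.4.6, scipy 1.17.1), was tested on simulated data and was checked against bedtools 2.31.1 (0 answers differed). Figures used matplotlib 3.10.9. Shares carry exact Clopper-Pearson and differences Newcombe 95% intervals; both cover counting error only, amplified reads not being independent molecules, and with 1 list per condition no test between conditions was made.

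The members, the 14 gene lists and the rules were chosen with earlier results of these data known. The genes named are the 10 with most control peaks, the 10 with the strongest control peak, per knockdown the 6 strongest control genes without a peak there, the 6 strongest with an overlapped control peak and the 5 strongest knockdown genes without a control peak, IFIT2 and IFIT5, the genes nearest to 10 kb and up to 4 per gene list; a few that these rules name are not reported here. Others, such as the genes whose shTRA2A and shMETTL3 peaks overlap, the genes mapped, those with printed sequence and those with mirrored peaks, were chosen after their values were seen. Alternatives changed the overlap rule, the score threshold, the regularity and merging of peaks, the length limit and the gene assignment.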

Additional observations from a re-analysis of the deposited data

How the results depend on the processing

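No paired analysis was possible because each condition has 1 peak list. Of 67 alternative values of the overlap shares, 58 moved by less than the counting interval. With midpoints within 100 nt required in place of overlap, 6.77% of short-gene control peaks were found in shTRA2A and 15.8% in shMETTL3, while 24.4% of shTRA2A and 23.0% of shMETTL3 peaks lay on a control peak. With each list limited to as many of its best peaks as shTRA2A holds, the control shares were 19.7% in shTRA2A and 24.9% in shMETTL3. The share of shTRA2A peaks on a shMETTL3 peak was 19.3% with those best peaks, 27.0% with the better-scoring 50% of each list, and 26.7% for bodies under 20 kb. That 50% held 122 shTRA2A, 236 shMETTL3 and 382 shNC short-gene peaks. Short minus longer, this share was higher in 13 of 13 alternatives (3.09 to 11.95 points, interval above 0 in 11). The share of shMETTL3 peaks on a control peak was lower in 12 of 12 (-7.97 to -2.10 points), with the interval below 0 in 7. For control peaks the difference ran from -2.66 to 0.92 points in shTRA2A, with the interval below 0 for bodies under 20 kb (-1.65, -3.01 to -0.18), and from -1.10 to 2.30 in shMETTL3. For shTRA2A peaks on a control peak it ran from -7.26 to 2.26, with the interval below 0 for bodies under 20 kb (-6.03, -10.2 to -1.66). Restricting to the gene's own strand, leaving out genes with a LOC number, and the pairing of the knockdown lists were chosen after seeing the data. Among named genes 21 of 348 alternative counts moved, most under the midpoint rule, where the strongest control peaks of KLHL9 and IFIT5 had no partner. Depth limits every count of missing peaks, and the read totals are unknown here.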
